A study of Mus musculus with 8 samples.

Results

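The cytosolic ribosomal protein genes were followed across E14 mouse embryonic stem cells of 4 labelled genotypes. A gene was a member if it was annotated as protein coding and its symbol had the form of a cytosolic large-subunit (Rpl) or small-subunit (Rps) gene with a number, or was Rplp0, Rplp1, Rplp2 or Rpsa. The rule found 80 genes among the 47643 in the count table, 49 of the large subunit and 31 of the small subunit. The choice used names and annotation only, not the measured values. Rps4l and Rpl6l matched the name pattern but are annotated as pseudogenes and were left out, while ribosomal protein genes with other names (Fau, Rack1, Rps3a1 and others) are given as a separate list.

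The cells, of 129/Ola strain background, had been grown in 2i, a serum-free N2B27 medium with LIF, the GSK3 inhibitor CHIR99021 and the MEK inhibitor PD0325901. The 4 groups had 2 polyA RNA libraries each: Dgcr8_KO (Dgcr8 knockout), Drosha_KO (Drosha knockout), Ago1_2_KO (knockout of Ago1 and Ago2 together) and WT, unmodified E14 cells. The nuclease DROSHA and its RNA-binding partner DGCR8 make up the Microprocessor, the nuclear complex that releases microRNA hairpins from their primary transcripts. Argonaute proteins hold the mature microRNA and repress the mRNAs it pairs with. Whether a genotype's pair of libraries stems from separate cultures is not stated in the labels, and the p-values below cover only the variation within such pairs, which may be technical.

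Each library is called by its label, because the mRNA of the targeted genes was not lower in every knockout. Drosha was at 51.2 and 82.3 CPM (counts per 1000000 counts of a library, after scaling by TMM factors) in the Drosha_KO libraries, against 278 and 266 CPM in WT. Dgcr8 was at 391 and 370 CPM in the libraries labelled Dgcr8_KO, against 78.0 and 70.4 CPM in WT. It was also at 304 and 234 CPM in Drosha_KO, and at 91.1 and 82.8 CPM in Ago1_2_KO. Dgcr8 mRNA was thus above WT in both Dgcr8_KO and Drosha_KO. Ago1 was at 160 and 87.8 CPM in the libraries labelled Ago1_2_KO, against 106 and 63.2 CPM in WT. Ago2 was at 216 and 195 CPM in the libraries labelled Ago1_2_KO, against 463 and 227 CPM in WT. Counts over a whole gene do not show a deleted exon, and the deleted part is not described in the labels. Summed CPM of 8 pluripotency genes (Pou5f1, Nanog, Esrrb and others) lay between 4796 and 5768 in all 8 libraries, and 7 fibroblast feeder markers summed to between 6.79 and 15.997 CPM, with Col1a2, Col3a1, Lum and Dcn under 0.5 CPM in every library. Libraries held between 13229771 and 26333907 counts.

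A ribosome is built from a large and a small subunit, each a set of ribosomal proteins folded around ribosomal RNA. Most of the proteins are needed in equal numbers in most ribosomes. Mammalian mRNAs for these proteins usually begin with a C followed by a run of pyrimidines, the 5′ terminal oligopyrimidine (TOP) motif, through which mTORC1 and the RNA-binding protein LARP1 control their translation and stability together. The genes are short and highly expressed in dividing stem cells, so together they take a visible share of a library.

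Sequences at annotated starts are shown for members that the results return to: Rpl31, Rpl35a, Rpl37a, Rpl22 and Rpl9, called lower in a knockout, Rplp2 and Rpl38, among those that differ most between the WT libraries, and Rpl10 with its variant copy Rpl10l. Each line is 30 bases of the gene's own strand from RefSeq (GRCm38.p6), centred on an annotated start, 5′ to 3′, and capitals mark a run of at least 5 pyrimidines that begins with C within 5 bases of the start.
Rpl35a (chr16:33056467-33056496, plus strand): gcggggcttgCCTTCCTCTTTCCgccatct
Rpl31 (chr1:39367836-39367865, plus strand): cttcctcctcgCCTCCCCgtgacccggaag
Rpl37a (chr1:72711245-72711274, plus strand): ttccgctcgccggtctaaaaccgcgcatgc
Rpl22 (chr4:152325711-152325740, plus strand): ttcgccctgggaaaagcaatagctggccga
Rpl9 (chr5:65391417-65391446, minus strand): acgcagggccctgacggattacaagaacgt
Rplp2 (chr7:141447636-141447665, plus strand): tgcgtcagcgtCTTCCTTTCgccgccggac
Rpl38 (chr11:114668565-114668594, plus strand): agcggaagcctcgttCTTTCCCCgttctct
Rpl10 (chrX:74270801-74270830, plus strand): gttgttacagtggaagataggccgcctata
Rpl10l (chr12:66284387-66284416, minus strand): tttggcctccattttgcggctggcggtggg
Of the 80 members, 60 had an annotated start in the RefSeq table, and 28 of these (46.7%) held such a run at a start, against 21.2% of the 27025 genes in the table. The share was 43.2% (16 of 37) for the large subunit and 52.2% (12 of 23) for the small subunit. Rpl35a has 3 annotated starts in the table, of which the one with a run is shown, and Rpl22 has a further start, also without a run. No run is marked in the windows of Rpl37a, Rpl22, Rpl9, Rpl10 and Rpl10l, which says only that these letters are not at those annotated starts. The windows shown for Rpl37a and Rpl22 end before the GENCODE gene coordinates given below for these genes. For them the annotations thus differ in where the gene starts, and a missing run does not show that the mRNA lacks a TOP motif.

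All 80 members passed the filter on low counts. Together they took 7.06% and 7.80% of all counts in the libraries labelled Dgcr8_KO, 5.95% and 7.37% in Drosha_KO, and 6.20% and 6.83% in Ago1_2_KO, against 7.88% in WT 1 and 13.6% in WT 2. WT 2 thus stood apart from the other 7 libraries, which lay between 5.95% and 7.88%, while WT 1 was the highest of those 7. Counting error is small beside these differences: the 95% Wilson interval extended at most 0.0142 percentage points to either side in any library, and it covers counting error only.

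**Figure D1:**
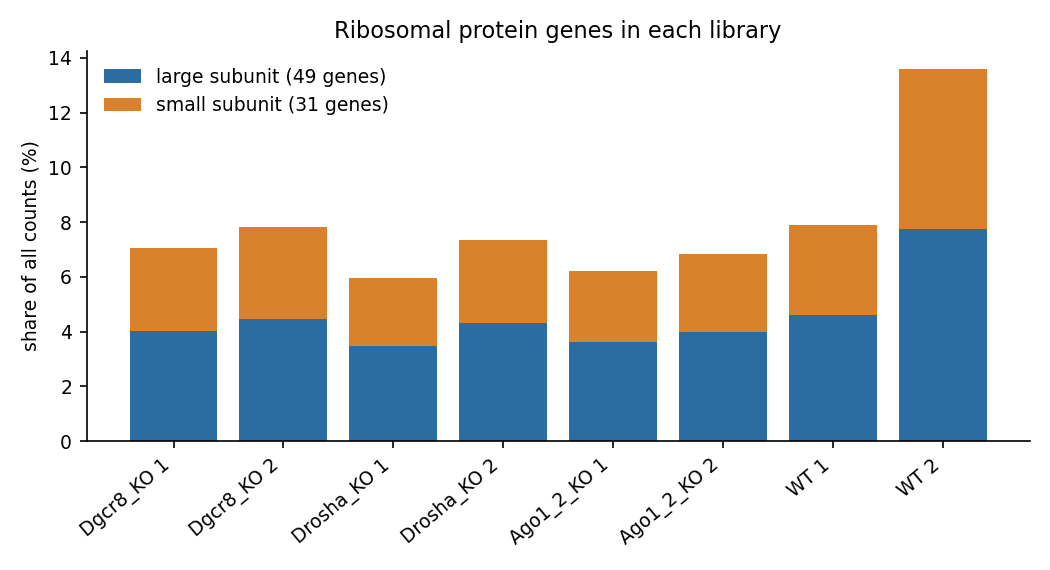
Share of all counts (%, y axis) taken by ribosomal protein genes in each of the 8 libraries (x axis), with the large subunit below and the small subunit stacked on it. WT 2 reaches 13.6%, while the other 7 libraries lie between 5.95% and 7.88%.

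The mean share was 7.43% ± 0.526 in the libraries labelled Dgcr8_KO, 6.66% ± 0.998 in Drosha_KO and 6.52% ± 0.445 in Ago1_2_KO, against 10.7% ± 4.03 in WT (SD, n = 2 each). Each knockout lay below both WT libraries, with an exact two-sided permutation p of 0.333, which is the smallest that 2 libraries against 2 can give. Set against WT 1 alone, the knockout means were lower by 0.452 percentage points for Dgcr8_KO, by 1.22 for Drosha_KO and by 1.37 for Ago1_2_KO, so most of each difference from the WT mean came from WT 2. In a bulk library a lower share can be fewer transcripts per cell or more of other RNA, and these cannot be told apart.

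Nearly every member was highest in WT 2: 78 of 80, the exceptions being Rpl10l, highest in Drosha_KO 1, and Rpl3l, highest in Drosha_KO 2. The share of all genes tested that were highest in WT 2 was not taken. The median CPM over members was 792 and 897 in the libraries labelled Dgcr8_KO, 684 and 923 in Drosha_KO and 701 and 811 in Ago1_2_KO, against 929 in WT 1 and 1725 in WT 2. Among the 100 genes with the most counts, 33 and 37 were members in the libraries labelled Dgcr8_KO, 26 and 35 in Drosha_KO and 26 and 33 in Ago1_2_KO, against 38 in WT 1 and 56 in WT 2. The 2 libraries of a genotype also differed in the knockouts, but by less: the median ratio of the second to the first library was 1.11 for Dgcr8_KO, 1.23 for Drosha_KO and 1.11 for Ago1_2_KO, against 1.89 for WT.

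**Figure D2:**
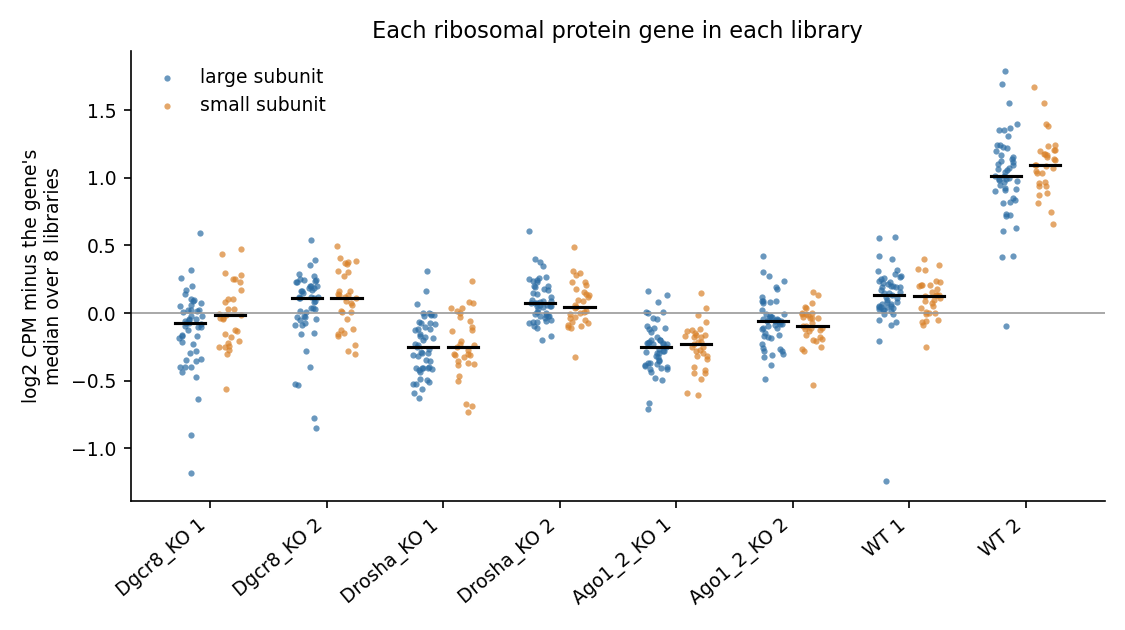
Each point is 1 ribosomal protein gene in 1 library (x axis), as log2 CPM minus that gene's median over the 8 libraries (y axis), with the large subunit on the left and the small subunit on the right of each library and bars at the medians. In WT 2 nearly the whole set is shifted up in both subunits, and the single low point in WT 1 is Rpl10l.

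The WT 2 excess was not the same for every gene. The ratio of WT 2 to WT 1 ran from 1.28 to 3.16 over the members, and was above 1 in all 80 and above 2 in 30. Over the 16152 tested genes with counts in both WT libraries its median was 1.02. Among those genes it was above 1 in 8399 and above 2 in 1275. The large subunit had a median ratio of 1.85 and the small subunit 1.94. A further 2 features of the library were higher in WT 2, like the members' share. Annotated ribosomal protein pseudogenes, 274 in the annotation, took 0.470% of counts in WT 2 and between 0.236% and 0.292% in the other libraries. The 2446 other genes with a coding sequence under 500 bases took 7.89% in WT 2 and between 5.35% and 5.95% elsewhere. Transcripts of the mitochondrial genome took 3.32% in WT 2, against 5.24% in WT 1 and between 3.13% and 5.40% in the knockout libraries, so WT 2 lies within the knockout range. The part of these features in the members' share was not tested.

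Members with the largest WT 2 to WT 1 ratio were Rps21 (3.16), Rpl36 (2.99), Rplp2 (2.79), Rps29 (2.77), Rps19 (2.73) and Rpl38 (2.73). Rps21, a small-subunit protein, was at 199 and 165 CPM in the libraries labelled Dgcr8_KO, 216 and 225 CPM in Drosha_KO and 188 and 203 CPM in Ago1_2_KO, against 205 CPM in WT 1 and 649 CPM in WT 2. Rps19, a gene mutated in human Diamond-Blackfan anaemia, was at 773 and 661 CPM, 727 and 789 CPM, and 709 and 642 CPM in the libraries labelled Dgcr8_KO, Drosha_KO and Ago1_2_KO, against 694 CPM in WT 1 and 1892 CPM in WT 2. Rpl38, whose loss in mouse alters translation of Hox mRNAs, ran from 202 to 241 CPM over the 6 knockout libraries, against 219 CPM in WT 1 and 597 CPM in WT 2. For these genes WT 1 lies within the range of the knockouts and only WT 2 is higher.

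The smallest ratios were those of Rpl7 (1.28), Rpl7a (1.28), Rpl39l (1.32), Rps6 (1.37), Rps26 (1.41) and Rps24 (1.45). Rps6, the substrate of S6 kinase downstream of mTORC1, was at 1342 and 2058 CPM in the libraries labelled Dgcr8_KO, 962 and 1586 CPM in Drosha_KO and 1105 and 1513 CPM in Ago1_2_KO, against 1789 and 2445 CPM in WT. Rps24, needed for processing of small-subunit ribosomal RNA, was at 1818 and 2901 CPM, 1238 and 2203 CPM, and 1349 and 1924 CPM in the same knockout libraries, against 2380 and 3455 CPM in WT. The 2 libraries of a genotype differ for these genes in all 4 genotypes, so their spread does not come from WT 2 alone. The SD of log2 CPM over the 7 libraries without WT 2 was 0.439 for Rps24 and 0.384 for Rps6, against a median of 0.239 over the members.

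Levels per length, as CPM per kilobase of coding sequence averaged over the 8 libraries, had a median of 1831 in the large subunit and 2134 in the small subunit. They ranged from 0.948 to 10752 in the large subunit and from 698 to 5410 in the small subunit, and the median over all tested genes lay between 15.4 and 17.2 in each library. Rpl41, which encodes the shortest ribosomal protein with a coding sequence of 75 bases, was the highest of the large subunit at 10752, followed by Rpl23 at 3262 and Rpl32 at 2888. Rps24 at 5410, Rps18 at 3281 and Rps12 at 3230 were the highest of the small subunit. At the low end stood Rpl3l at 0.948, Rpl29 at 142 and Rpl39l at 162 in the large subunit, and Rps27l at 698, Rps13 at 807 and Rps21 at 1029 in the small subunit. Mice without Rpl29 are viable, and Rpl3l, Rpl39l and Rps27l are variant copies of other members. Because many members have near-identical processed pseudogenes, reads can be shared with them, and per-length levels depend on how the authors' counting treated such reads. The length is that of the coding sequence alone, while counts are per gene and can include untranslated parts. A very short coding sequence, as in Rpl41, can therefore raise the level per length and the rank.

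The balance between the subunits varied little between libraries. Summed large-subunit counts were 1.32 and 1.33 times the small-subunit counts in the libraries labelled Dgcr8_KO, 1.40 and 1.41 times in Drosha_KO and 1.39 and 1.40 times in Ago1_2_KO, against 1.40 in WT 1 and 1.33 in WT 2. On the log2 scale the ratio averaged 0.40 ± 0.0099 for Dgcr8_KO, 0.49 ± 0.0041 for Drosha_KO and 0.48 ± 0.0030 for Ago1_2_KO, against 0.45 ± 0.052 for WT (SD, n = 2 each). The libraries labelled Dgcr8_KO were below both WT libraries (difference of -0.05, exact permutation p of 0.333). For Drosha_KO and Ago1_2_KO the differences were 0.04 (exact permutation p of 0.667) and 0.03 (exact permutation p of 1). In each knockout the difference was smaller than the distance between WT 1 (0.49) and WT 2 (0.42). Both subunits were thus higher in WT 2, with the balance slightly further toward the small subunit than in WT 1. The summed ratio does not separate large from small in any knockout beyond the spread between WT libraries.

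Against WT, the median log2 fold change over the 80 members was -0.65 for Dgcr8_KO, -0.77 for Drosha_KO and -0.85 for Ago1_2_KO, beside -0.03, -0.02 and -0.02 over all 16388 genes tested. The fold was below 0 for 79, 78 and 79 of the 80. By subunit the medians were -0.63 and -0.66 for the large and small subunit in Dgcr8_KO, -0.76 and -0.78 in Drosha_KO, and -0.85 and -0.86 in Ago1_2_KO. The 3 comparisons share the WT libraries, and without WT 2 the medians were -0.10, -0.21 and -0.28, beside 0.03, 0.05 and 0.01 over the same 16388 genes. Without WT 1 they were -0.99, -1.13 and -1.22. By subunit, the medians without WT 2 were -0.13 and -0.01 for the large and small subunit in Dgcr8_KO. In Drosha_KO they were -0.20 and -0.24, and in Ago1_2_KO -0.33 and -0.27. WT then rests on WT 1 alone, and the difference between subunits was not tested.

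**Figure D3:**
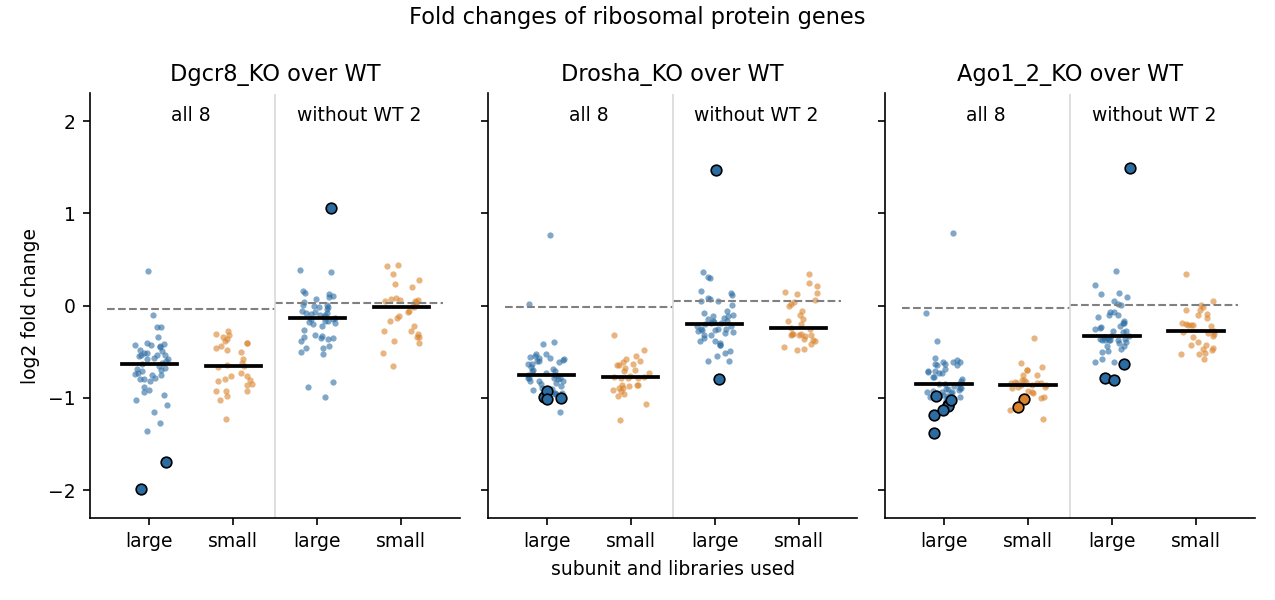
Log2 fold changes (y axis) of the ribosomal protein genes in the 3 knockouts over WT, by subunit, with all 8 libraries and without WT 2. Bars are medians, dashed lines the median of all genes tested, and outlined points genes with an adjusted p under 0.05. For the large and small subunit the bars lie at -0.63 and -0.66 in Dgcr8_KO, -0.76 and -0.78 in Drosha_KO, and -0.85 and -0.86 in Ago1_2_KO. Without WT 2 they lie at -0.13 and -0.01, -0.20 and -0.24, and -0.33 and -0.27 in the same order.

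Few single members passed the test (edgeR quasi-likelihood, Benjamini-Hochberg adjusted p under 0.05 over all genes tested). In Dgcr8_KO, 2 of 80 were called lower and 0 higher, beside 4.48% of all genes lower and 2.45% higher. In Drosha_KO, 4 were called lower and 0 higher, beside 4.83% and 6.54%. In Ago1_2_KO, 9 were called lower and 0 higher, beside 7.38% and 10.2%. The 2 and 4 are near the background shares, and the 9 of 80 are somewhat above it. At an unadjusted p under 0.05, the members lower were 33 in Dgcr8_KO, 44 in Drosha_KO and 63 in Ago1_2_KO, beside 16.6%, 14.3% and 17.2% of all genes. The members higher at that p were 0, 1 and 1, beside 13.4%, 15.6% and 17.7%. DESeq2 on the same counts called 19, 29 and 48 lower, beside 8.51%, 6.75% and 9.21% of all genes, and 0, 0 and 1 higher, beside 5.86%, 9.57% and 12.6%.

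The calls depended on which WT library was used. Without WT 2, edgeR called 0 members lower and 1 higher in Dgcr8_KO, beside 2.19% and 0.871% of all genes. In Drosha_KO it called 1 lower and 1 higher, beside 3.01% and 3.98%, and in Ago1_2_KO 3 lower and 1 higher, beside 3.57% and 6.35%. Without WT 1, edgeR called 66, 68 and 72 members lower in Dgcr8_KO, Drosha_KO and Ago1_2_KO, beside 12.5%, 10.2% and 12.7% of all genes. Members lower without WT 2 were Rpl7 in Drosha_KO and Rpl7, Rpl22 and Rpl37a in Ago1_2_KO, and the member higher in each was Rpl10l.

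WT 1 was the lower of the WT pair in all 80 members, so each gene was also set against WT 1 alone, a comparison chosen after seeing the data that treats members and other genes alike. Both knockout libraries lay below WT 1 for 42 of 80 members in Dgcr8_KO, 51 in Drosha_KO and 66 in Ago1_2_KO, beside 41.2%, 36.6% and 43.5% of all genes tested. Both lay above WT 1 for 15, 11 and 6 members, beside 43.3%, 37% and 40.9%. In 28 members (20 of 49 large, 8 of 31 small) all 6 knockout libraries were below WT 1, beside 17.1% of all genes tested. These counts rest on WT 1 as a single library and have no test.

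Among the large-subunit genes, Rpl7 (ENSMUSG00000043716.13, chr1:16101295-16104662, minus strand, GRCm38), an RNA-binding protein of the large subunit, was at 1350 and 1451 CPM in Drosha_KO and 1404 and 1372 CPM in Ago1_2_KO, against 2471 and 3175 CPM in WT. In the libraries labelled Dgcr8_KO it was at 1922 and 2036 CPM. The Drosha_KO and Ago1_2_KO libraries do not overlap the others, and WT 1 and WT 2 are both high. Rpl7 fell by 1.01 ± 0.22 on the log2 scale in Drosha_KO (edgeR adjusted p = 0.0215) and by 1.02 ± 0.22 in Ago1_2_KO (edgeR adjusted p = 0.0163). Without WT 2 the log2 fold changes were -0.80 (edgeR adjusted p = 0.0283) and -0.81 (edgeR adjusted p = 0.0228), so both calls held there.

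Rpl37a (ENSMUSG00000046330.9, chr1:72711290-72713813, plus strand), a zinc-finger protein of the large subunit, was at 474 and 480 CPM in the libraries labelled Dgcr8_KO, 436 and 464 CPM in Drosha_KO and 404 and 385 CPM in Ago1_2_KO, against 689 and 1108 CPM in WT. All 6 knockout libraries are below both WT libraries, and the Ago1_2_KO pair is lowest. It fell by 1.00 ± 0.24 in Drosha_KO (edgeR adjusted p = 0.0298) and by 1.19 ± 0.24 in Ago1_2_KO (edgeR adjusted p = 0.0125), both on the log2 scale. Without WT 2 the fold changes were -0.60 (edgeR adjusted p = 0.0572) and -0.78 (edgeR adjusted p = 0.0223).

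Rpl22 (ENSMUSG00000028936.15, chr4:152325742-152334071, plus strand), which also binds RNA outside the ribosome, was at 342 and 379 CPM in Drosha_KO and 348 and 327 CPM in Ago1_2_KO, against 532 and 894 CPM in WT. It was at 479 CPM in each of the libraries labelled Dgcr8_KO, between the other knockouts and WT. The log2 fold change was -0.98 ± 0.25 in Drosha_KO (edgeR adjusted p = 0.0351, and 0.0812 without WT 2) and -1.08 ± 0.25 in Ago1_2_KO (edgeR adjusted p = 0.0203, and 0.0431 without WT 2).

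Rpl35a (ENSMUSG00000060636.13, chr16:33056453-33060189, plus strand), also mutated in Diamond-Blackfan anaemia and shown above with a 13-base pyrimidine run at a start, was at 334 and 421 CPM in Drosha_KO and 333 and 389 CPM in Ago1_2_KO, against 549 and 881 CPM in WT. It fell by 0.92 ± 0.26 in Drosha_KO (edgeR adjusted p = 0.0492) and by 0.98 ± 0.26 in Ago1_2_KO (edgeR adjusted p = 0.0304). Without WT 2 neither passed, with log2 fold changes of -0.52 and -0.58 (edgeR adjusted p = 0.154 and 0.0990).

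Rpl31 and Rpl9 passed the test in Ago1_2_KO and in neither of the other knockouts, a difference between knockouts that is itself not called in either comparison among them. Rpl31, near the exit of the peptide tunnel, was at 620 and 651 CPM in Ago1_2_KO, against 1097 and 1602 CPM in WT (log2 fold change -1.09 ± 0.27, edgeR adjusted p = 0.0234). Rpl9, another large-subunit protein, was at 726 and 606 CPM in Ago1_2_KO, against 917 and 2007 CPM in WT (log2 fold change -1.13 ± 0.33, edgeR adjusted p = 0.0424). Without WT 2 these were -0.77 (edgeR adjusted p = 0.0723) and -0.44 (edgeR adjusted p = 0.163).

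Rpl36 (ENSMUSG00000057863.5, chr17:56613416-56614243, plus strand), a large-subunit protein, had an SD of 0.537 in log2 CPM over the 7 libraries without WT 2, below only Rpl3l and Rpl10l. It was at 107 and 111 CPM in the libraries labelled Dgcr8_KO, 184 and 259 CPM in Drosha_KO and 174 and 267 CPM in Ago1_2_KO, against 216 and 646 CPM in WT. The libraries labelled Dgcr8_KO are lowest, and the other knockouts lie on both sides of WT 1. It fell by 1.99 ± 0.44 on the log2 scale in Dgcr8_KO (edgeR adjusted p = 0.0316), and the fold change without WT 2 was -0.99 (edgeR adjusted p = 0.102).

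The stalk is the flexible arm of the large subunit that recruits elongation factors, with Rplp0 at its base and the acidic proteins Rplp1 and Rplp2 along it. Rplp1 (ENSMUSG00000007892.7, chr9:61913284-61914542, minus strand) was at 461 and 407 CPM in the libraries labelled Dgcr8_KO, 558 and 701 CPM in Drosha_KO and 462 and 621 CPM in Ago1_2_KO, against 776 and 2032 CPM in WT. All 6 knockout libraries are below WT 1. Rplp1 fell by 1.69 ± 0.39 in Dgcr8_KO (edgeR adjusted p = 0.0347) and by 1.38 ± 0.39 in Ago1_2_KO (edgeR adjusted p = 0.0387). Without WT 2 the fold changes were -0.83 and -0.50 (edgeR adjusted p = 0.0925 and 0.190).

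Rplp2 was at 333 and 284 CPM, 357 and 447 CPM, and 339 and 441 CPM in the libraries labelled Dgcr8_KO, Drosha_KO and Ago1_2_KO, against 393 and 1097 CPM in WT. Unlike Rplp1, its WT 1 value lies among the knockouts. Rplp0 ran from 817 to 989 CPM over the 6 knockout libraries, all below the 1084 and 2184 CPM in WT. Its log2 fold changes of -0.79, -0.78 and -0.95 did not pass the test (edgeR adjusted p = 0.120, 0.119 and 0.0563 for Dgcr8_KO, Drosha_KO and Ago1_2_KO).

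Of the small-subunit genes, Rps2 and Rps27l were called, both in Ago1_2_KO. Rps2 (ENSMUSG00000044533.15, chr17:24718116-24721929, plus strand), at the mRNA entry of the small subunit, was at 1239 and 1384 CPM in Ago1_2_KO, against 1986 and 3314 CPM in WT (log2 fold change -1.01 ± 0.30, edgeR adjusted p = 0.0437, and 0.154 without WT 2). Rpsa, also known as the laminin receptor, was at 2178 and 2648 CPM in the libraries labelled Dgcr8_KO, 1985 and 2533 CPM in Drosha_KO and 2072 and 2541 CPM in Ago1_2_KO, against 2830 and 5381 CPM in WT. All 6 knockout values are below both WT values, but its log2 fold changes of -0.77, -0.86 and -0.83 did not pass (edgeR adjusted p = 0.147, 0.109 and 0.09998). Rps6 and Rps24 gave log2 fold changes of -0.69 and -0.83 in Ago1_2_KO that also did not pass (edgeR adjusted p = 0.164 and 0.133).

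These calls rest on few libraries. Leaving out each of the 8 libraries in turn, Rpl7, Rpl22 and Rpl37a stayed called in Ago1_2_KO in 6 of 8 refits, losing the call only when an Ago1_2_KO library was left out. In Dgcr8_KO, Rpl36 and Rplp1 stayed called in 3 of 8, losing the call without either library labelled Dgcr8_KO or Ago1_2_KO and without WT 2 (edgeR adjusted p from 0.00401 to 0.237 for Rpl36 and from 0.00370 to 0.233 for Rplp1). In Drosha_KO, Rpl7 stayed called without Drosha_KO 2, WT 1 or WT 2 (edgeR adjusted p from 0.00554 to 0.109), and Rpl22, Rpl37a and Rpl35a only without WT 1. The other Ago1_2_KO calls were kept in 5 of 8 refits for Rpl31, in 3 of 8 for Rplp1, Rps27l, Rps2 and Rpl35a, and in 1 of 8 for Rpl9, each losing the call without either Ago1_2_KO library and without WT 2. Rplp1, Rps27l, Rps2 and Rpl35a also lost it without either library labelled Dgcr8_KO, and Rpl9 without either library of Dgcr8_KO or Drosha_KO.

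The 4 variant copies are given beside the genes they resemble. Rpl10l, an intronless autosomal copy of the X-linked Rpl10 that takes its place in mouse male germ cells, was at 103 and 108 CPM in the libraries labelled Dgcr8_KO, 149 and 128 CPM in Drosha_KO and 134 and 148 CPM in Ago1_2_KO, against 50.8 CPM in WT 1 and 112 CPM in WT 2. Rpl10, which joins the large subunit late in its assembly, was at 1124 and 1130 CPM, 994 and 1004 CPM, and 1018 and 1002 CPM in the same knockout libraries, against 1074 and 2013 CPM in WT. Every knockout library is above WT 1 for Rpl10l, while Rpl10 differs little between the 7 libraries other than WT 2 (SD of 0.0806 in log2 CPM). With all libraries the log2 fold changes of Rpl10l were 0.38 ± 0.31, 0.76 ± 0.31 and 0.79 ± 0.31 in Dgcr8_KO, Drosha_KO and Ago1_2_KO and did not pass (edgeR adjusted p = 0.432, 0.134 and 0.104). Without WT 2 they were 1.06, 1.47 and 1.49 and passed (edgeR adjusted p = 0.0257, 0.00864 and 0.00706), with WT then resting on WT 1 alone.

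Scaled to the members' own summed counts, an alternative chosen after seeing the data that sets each gene against the members as a whole, Rpl10l was the only member called in Drosha_KO (1.58, edgeR adjusted p = 0.0295) and Ago1_2_KO (1.66, edgeR adjusted p = 0.0166), and none was called in Dgcr8_KO. Beside these, 0.958%, 6.74% and 12.4% of all genes were called higher and 0.256%, 0.513% and 0.464% lower in Dgcr8_KO, Drosha_KO and Ago1_2_KO. That scaling moves the median of all genes tested to 0.48, 0.62 and 0.68. The coding sequences of Rpl10 and Rpl10l, read from the GENCODE M21 transcripts on GRCm38, are each 642 bases long and differ at 98 of them (84.7% identity). Whether reads of one were counted for the other was not tested. Their first 150 bases are printed with the 25 differing bases in capitals.
Rpl10 (chrX, plus strand): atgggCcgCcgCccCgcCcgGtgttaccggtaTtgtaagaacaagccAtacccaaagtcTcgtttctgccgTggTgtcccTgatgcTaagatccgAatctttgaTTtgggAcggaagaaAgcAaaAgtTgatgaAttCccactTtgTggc
Rpl10l (chr12, minus strand): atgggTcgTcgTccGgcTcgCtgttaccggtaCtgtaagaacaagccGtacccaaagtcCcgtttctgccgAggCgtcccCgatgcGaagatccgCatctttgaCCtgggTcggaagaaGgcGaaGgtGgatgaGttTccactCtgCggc

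**Figure D4:**
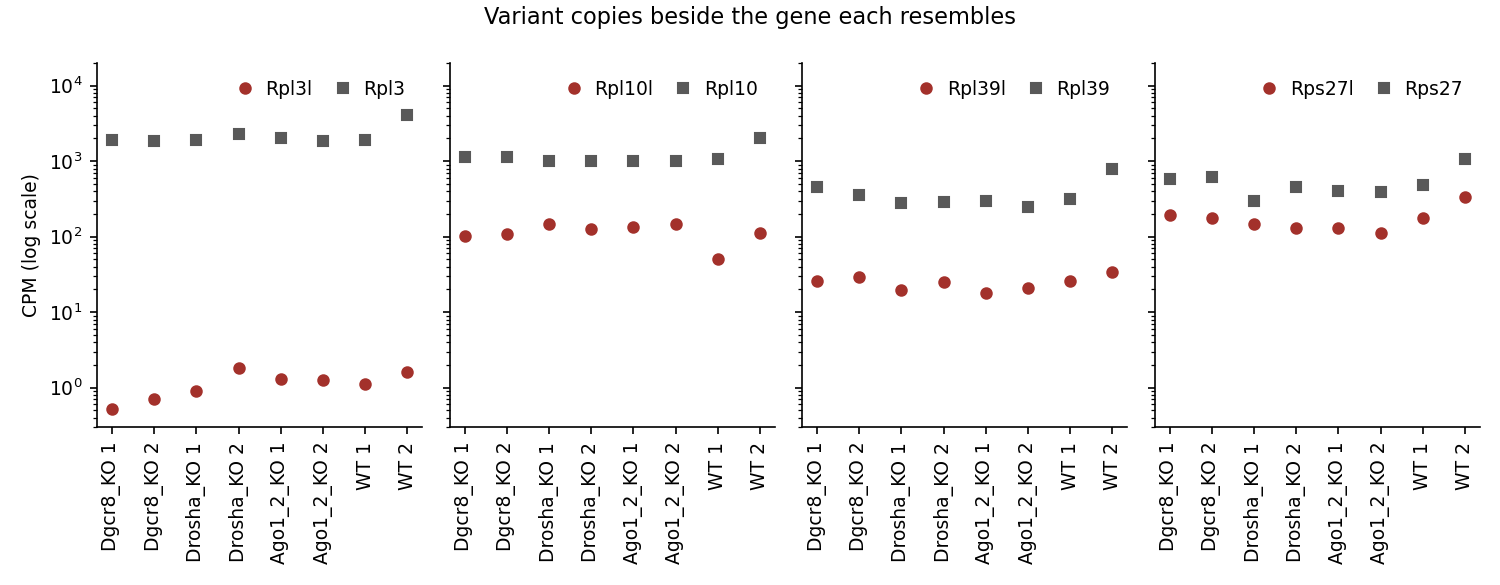
CPM on a log scale (y axis) of 4 variant copies (circles) and the genes they resemble (squares) in each library (x axis). Rpl10l is lowest in WT 1 at 50.8 CPM, while the 4 parent genes are highest in WT 2.

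Rps27l, known as a p53 target and 76.2% identical to Rps27 in coding sequence, was at 192 and 178 CPM in the libraries labelled Dgcr8_KO, 149 and 129 CPM in Drosha_KO and 130 and 112 CPM in Ago1_2_KO, against 177 and 340 CPM in WT. It fell by 1.10 ± 0.28 on the log2 scale in Ago1_2_KO (edgeR adjusted p = 0.0277), and without WT 2 the log2 fold change was -0.52 (edgeR adjusted p = 0.0992). Rps27 was at 574 and 614 CPM, 296 and 455 CPM, and 398 and 389 CPM in the libraries labelled Dgcr8_KO, Drosha_KO and Ago1_2_KO, against 491 and 1085 CPM in WT, with no call. Both genes are higher in the libraries labelled Dgcr8_KO than in the other knockouts.

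Rpl39l, a copy of Rpl39 known from mouse male germ cells and 85.0% identical to it, ran from 18.1 to 29.5 CPM over the knockout libraries, against 25.7 and 33.8 CPM in WT. Rpl39, which lines the peptide exit tunnel, ran from 246 to 460 CPM over the knockout libraries, against 314 and 786 CPM in WT. Rpl3l, a copy of Rpl3 used in heart and skeletal muscle and 73.2% identical to it, was at most 1.82 CPM in any library, while Rpl3 was at least 1826 CPM. None of these 4 genes passed the test against WT in any knockout.

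The Microprocessor mutants were set against each other to see whether losing Drosha differs from losing Dgcr8. Over the members the median log2 fold change of Drosha_KO over the libraries labelled Dgcr8_KO was -0.14, with 50 of 80 below 0. No member passed the edgeR test, beside 9.67% of all genes called higher and 5.74% lower. At an unadjusted p under 0.05 there were 3 members, beside 32.2% of all genes. DESeq2 called 1 member higher and 0 lower, beside 11.8% and 6.77%. Fold changes ran from -0.72 to 1.17. Without WT 2, which enters this comparison only through the shared estimate of spread, the filter and the scaling, edgeR called 2 higher and 4 lower, beside 13.9% and 8.73% of all genes. Those higher were Rpl36 (1.04, edgeR adjusted p = 0.0183) and Rpl8 (0.81, edgeR adjusted p = 0.0127), and Rpl7, Rpl36a and Rps15a were among those lower.

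Rpl8, whose protein lies at the core of the large subunit, was at 1663 and 2012 CPM in Drosha_KO, against 1023 and 1103 CPM in the libraries labelled Dgcr8_KO. Rpl36a, an X-linked gene, was at 325 and 484 CPM in Drosha_KO, against 603 and 732 CPM in the libraries labelled Dgcr8_KO. The order of the groups is thus opposite for these 2 genes, and their libraries do not overlap.

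The members' order in that comparison followed the base composition of their coding sequences. Members with under 50% GC (20 genes) had a median log2 fold change of -0.41 in Drosha_KO over Dgcr8_KO, with 19 below 0. Members from 50% to 55% GC (37 genes) had -0.15, and those at 55% GC or more (23 genes) had 0.23, with 20 above 0. Across the 80 members Spearman's rho between the fold change and GC was 0.78, a description over genes that share the same 4 libraries, and over 13642 tested genes with a coding sequence it was 0.42.

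Dgcr8_KO over WT ran the other way, with rho of -0.70 over the members and -0.41 over all genes. The median log2 fold change there was -0.45 under 50% GC, -0.62 from 50% to 55% and -0.89 at 55% or more. For Drosha_KO and Ago1_2_KO over WT, rho over the members was 0.18 and 0.02. Rpl36, at 61.6% GC in its coding sequence, is the member richest in GC by that measure. A further fit had an offset for the GC content of the whole transcript. The Dgcr8_KO log2 fold change was then -1.32 for Rpl36 (edgeR adjusted p = 0.0604) and -1.23 for Rplp1 (edgeR adjusted p = 0.0650). Neither was called in that fit. The part of base composition in these differences was not tested further.

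**Figure D5:**
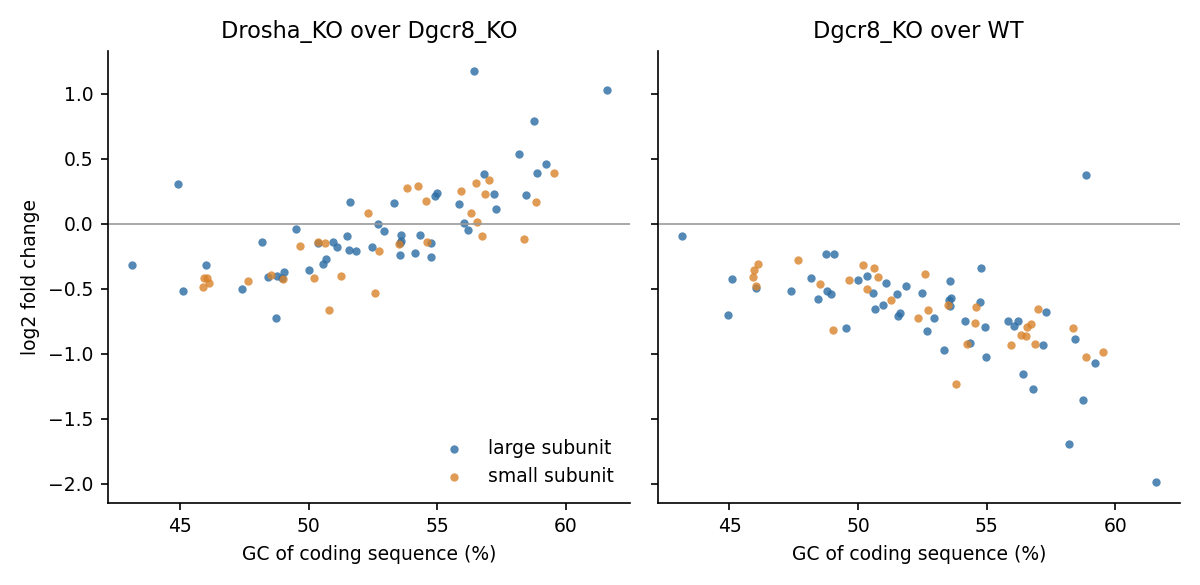
Log2 fold change (y axis) of each ribosomal protein gene against the GC content of its coding sequence (%, x axis), for Drosha_KO over Dgcr8_KO (left) and Dgcr8_KO over WT (right). Points rise with GC on the left (rho of 0.78) and fall with GC on the right (rho of -0.70).

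Ago1_2_KO was set against the mean of Drosha_KO and Dgcr8_KO to see whether loss of the effector proteins differs from loss of the Microprocessor. The median log2 fold change of the members was -0.15, with 65 of 80 below 0, beside -0.02 over all genes tested. No member passed the edgeR test, beside 5.33% of all genes called higher and 1.07% lower. At an unadjusted p under 0.05 by edgeR there was no member either, beside 3258 of the 16388 genes tested. DESeq2 also called no member, and its share over all genes was not taken for this comparison. The members' range follows. Fold changes ran from -0.41 to 0.51, and the extremes did not differ beyond the spread between libraries.

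Members share features that the rule did not use. Their coding sequences are short, with a median of 454.5 bases and a range from 75 to 1257, against a median of 1386 bases over all genes tested, and their GC is ordinary (median 52.8%, against 53.2%). They are spread over 19 chromosomes, with 14 on chromosome 7 and 4 on the X chromosome (Rpl10, Rps4x, Rpl36a and Rpl39). Rps4x was at 2379 and 2244 CPM in the libraries labelled Dgcr8_KO, 1714 and 1705 CPM in Drosha_KO and 1637 and 1443 CPM in Ago1_2_KO, against 1717 and 3875 CPM in WT. The ratio of WT 2 to WT 1 was related to coding length with rho of -0.25 over the members and -0.45 over all genes tested, shorter sequences having the larger ratios.

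Genes that work with the ribosomal proteins were read from lists chosen with earlier results known. Beside the counts in all lists below, 4.48%, 4.83% and 7.38% of all genes were called lower in Dgcr8_KO, Drosha_KO and Ago1_2_KO. The shares called higher were 2.45%, 6.54% and 10.2%, and those without WT 2 are given with the members' calls above. Small counts in a list are to be read beside these shares. Of 7 ribosomal protein genes outside the name rule, Fau was called lower in Dgcr8_KO and no other call was made. Fau, which encodes the small-subunit protein RPS30 fused to a ubiquitin-like domain, was at 204 and 227 CPM in the libraries labelled Dgcr8_KO, against 344 and 795 CPM in WT (log2 fold change -1.40 ± 0.34, edgeR adjusted p = 0.0419), and without WT 2 its fold change was -0.67 and no gene of the list was called. The list's medians were -0.49, -0.56 and -0.71 in Dgcr8_KO, Drosha_KO and Ago1_2_KO, and 0.11, 0.06 and -0.17 without WT 2. The scaffold protein Rack1, on the small subunit, was at 1736 to 2109 CPM in the knockouts, against 1878 and 3827 CPM in WT. Its knockout libraries lie on both sides of WT 1, and without WT 2 its log2 fold changes were 0.11, 0.06 and -0.08.

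Among 20 translation factors whose mRNAs carry a TOP motif, 0, 1 and 4 were called lower in Dgcr8_KO, Drosha_KO and Ago1_2_KO and 0 higher. Without WT 2 these were 0, 0 and 2 lower and 0, 1 and 1 higher. Eef1b2, which reloads the elongation factor eEF1A with GTP, was at 692 and 657 CPM in Drosha_KO and 680 and 625 CPM in Ago1_2_KO, against 1057 and 1641 CPM in WT. It fell by 1.00 ± 0.24 (edgeR adjusted p = 0.0299) and by 1.05 ± 0.24 (edgeR adjusted p = 0.0199), and without WT 2 the log2 fold changes were -0.63 and -0.67.

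Of 12 tested host genes of small nucleolar RNAs with TOP-type transcripts, 0, 6 and 7 were called lower in Dgcr8_KO, Drosha_KO and Ago1_2_KO, and 0, 2 and 4 without WT 2. Their median log2 fold changes were -0.33, -0.85 and -1.02, and 0.17, -0.45 and -0.66 without WT 2. Gas5, a noncoding RNA whose introns hold small nucleolar RNAs, was at 169 and 166 CPM in Drosha_KO and 145 and 139 CPM in Ago1_2_KO, against 333 and 371 CPM in WT, with 261 and 277 CPM in the libraries labelled Dgcr8_KO. All 3 knockouts lie below both WT libraries, and WT 1 and WT 2 are close for this gene. It fell by 1.07 ± 0.17 in Drosha_KO (edgeR adjusted p = 0.00691) and by 1.31 ± 0.18 in Ago1_2_KO (edgeR adjusted p = 0.00214), with -0.97 and -1.21 without WT 2. Snhg6, of the same kind, fell in the same 2 knockouts, with log2 fold changes of -1.24 ± 0.24 and -1.43 ± 0.24 (edgeR adjusted p = 0.0128 and 0.00528).

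Of 40 genes for ribosomal RNA processing and ribosome assembly, 0, 1 and 5 were called lower and 0 higher, with medians of 0.02, -0.29 and -0.35 in Dgcr8_KO, Drosha_KO and Ago1_2_KO. Without WT 2 there were 0, 0 and 2 lower and 1 higher, in Ago1_2_KO. Nip7, needed for large-subunit assembly, was at 57.4 and 53.4 CPM in Ago1_2_KO, against 92.8 and 132 CPM in WT (log2 fold change -1.02 ± 0.21, edgeR adjusted p = 0.0128). Wdr12, of the same pathway, was at 89.2 and 69.0 CPM in Ago1_2_KO, against 145 and 150 CPM in WT (log2 fold change -0.90 ± 0.19, edgeR adjusted p = 0.0156). Of 17 genes for RNA polymerase I and its factors, 2, 0 and 3 were called lower and 0 higher, and 1, 0 and 0 lower without WT 2. Those in Dgcr8_KO were Polr2f and Polr2e, subunits shared between RNA polymerases.

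Among 21 genes of mTORC1 and its control of TOP mRNAs, 0, 2 and 3 were called higher and 2, 1 and 2 lower in Dgcr8_KO, Drosha_KO and Ago1_2_KO, and without WT 2 there were 0, 2 and 1 higher and 1, 1 and 1 lower. Ddit4, an inhibitor of mTORC1 induced by stress, was at 11.8 and 9.40 CPM in the libraries labelled Dgcr8_KO, 9.18 and 9.64 CPM in Drosha_KO and 22.5 CPM in each Ago1_2_KO library, against 87.1 and 72.8 CPM in WT. It fell in all 3, with log2 fold changes of -2.91 ± 0.22, -3.08 ± 0.22 and -1.83 ± 0.21 (edgeR adjusted p = 0.000567, 0.000649 and 0.00127), and WT 1 is here the higher of the WT pair. Rragd, a GTPase that brings mTORC1 to lysosomes, was at 92.4 and 89.4 CPM in Drosha_KO and 123 and 106 CPM in Ago1_2_KO, against 51.7 and 37.5 CPM in WT, and rose by 1.03 ± 0.20 and 1.36 ± 0.21 (edgeR adjusted p = 0.0150 and 0.00351).

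Of 9 Myc genes and partners, 0, 3 and 4 were called higher and 0, 0 and 1 lower, and 0, 1 and 2 higher without WT 2. The Myc antagonist Mnt was at 56.0 and 53.6 CPM in Drosha_KO and 64.4 and 72.8 CPM in Ago1_2_KO, against 32.9 and 34.4 CPM in WT, and rose by 0.70 ± 0.18 and 1.03 ± 0.18 (edgeR adjusted p = 0.0353 and 0.00672). Of 15 p53 targets linked to nucleolar stress, 0, 0 and 1 were called higher and 1, 0 and 1 lower, with 1 higher, in Ago1_2_KO, and 0 lower without WT 2. Bbc3, a proapoptotic member of the BCL2 family, was at 7.75 and 8.95 CPM in the libraries labelled Dgcr8_KO and 6.96 and 10.4 CPM in Ago1_2_KO, against 17.4 and 21.4 CPM in WT.

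A list of nuclear genes of the respiratory chain, limited to short transcripts, showed a similar shift. Of 40 tested, 7, 6 and 16 were called lower in Dgcr8_KO, Drosha_KO and Ago1_2_KO and 0 higher, and 1, 0 and 3 without WT 2. Their median log2 fold changes were -0.74, -0.60 and -0.80, and -0.25, -0.11 and -0.30 without WT 2. Uqcrq, a subunit of complex III, was at 24.5 and 18.7 CPM in the libraries labelled Dgcr8_KO, 27.3 and 33.4 CPM in Drosha_KO and 25.4 and 36.9 CPM in Ago1_2_KO, against 60.8 and 113 CPM in WT. The members' medians of -0.65, -0.77 and -0.85 stand beside those of this list. No test of the difference between the members and the list was made.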

How the data were processed

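RNA of mouse embryonic stem cells was sequenced as polyA-selected, reverse-stranded TruSeq libraries, per the labels' protocols. The deposited values are raw counts per gene, aligned with STAR 2.4.2a to mm10 (GRCm38), per the submitters' processing notes; how reads were counted, with which strand setting and with what treatment of reads shared with pseudogenes, was not given in the sources used here. Of the 47643 gene IDs, 47224 matched a symbol and biotype in GENCODE M21, 39106 with the same version. Totals were 13229771 to 26333907 counts per library, and no count column was left unused.

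Counts were tested with edgeR 4.0.16 (R 4.3.3): TMM factors, filterByExpr, a quasi-likelihood F test on all 8 libraries with 1 mean per genotype, and Benjamini-Hochberg adjustment over the 16388 genes kept. Calls needed an adjusted p under 0.05. CPM were scaled by TMM factors. Levels per length used the coding sequence of the principal GENCODE M21 transcript. Shares and subunit ratios were compared by exact permutation over libraries. DESeq2 1.42.0, another scaling, no filter, a GC offset, a replicate block and leaving out each library were alternatives. The scripts were tested on simulated data.

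The members and the gene lists were chosen with earlier results of these data known. Members named were those called with groups that do not overlap, up to 6 a direction, the 3 highest and lowest per length in each subunit, those with the largest and smallest ratio of WT 2 to WT 1, variant copies with the genes they resemble, stalk genes, Rpsa and Rps6; Rpl8, Rpl36a and the other members named among those called between knockouts without WT 2 were chosen after their values were seen. Some genes are not reported here by name. The labels do not say what replicate numbers mark, so the fit without a block is the main one.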

Additional observations from a re-analysis of the deposited data

How the results depend on the processing

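The count of members called lower moved most. For Dgcr8_KO, Drosha_KO and Ago1_2_KO over WT it was 2, 4 and 9 with edgeR, 19, 29 and 48 with DESeq2, and 42, 59 and 74 with no filter on low counts (beside 7.06%, 5.52% and 7.37% of all genes), where 0, 1 and 1 were called higher. A GC offset gave 1 for Dgcr8_KO and 14 for Ago1_2_KO (beside 2.82% and 9.05%). DESeq2 called 1 member higher in Ago1_2_KO and 1 in Drosha_KO over Dgcr8_KO, beside 12.6% and 11.8% of all genes. With no filter, Drosha_KO over Dgcr8_KO gave 2 members higher and 2 lower. The main fit, with the filter, called 9.67% of all genes higher and 5.74% lower in that comparison. Without the filter, shares over all genes were taken only for calls lower against WT. Scaled to the members' summed counts, an alternative chosen after seeing the data, 0 were lower in each, 0, 1 and 1 higher, and the medians -0.024, -0.0050 and -0.027, as that scaling centres the members by its construction. With the replicate block 17, 31 and 48 were lower, beside 9.34%, 7.79% and 11% of all genes. Deviations of libraries with the same number correlated at 0.0963 to 0.245, and the second library had the higher member share in all 4 genotypes. The labels do not say what a number marks, so whether the numbers pair libraries is not settled by these values. Leaving out 1 library, with the lone library of a pair assumed to vary like the other groups, gave 0 to 66, 0 to 68 and 0 to 72 lower and 0 to 1 higher in each, 0 to 2 higher and 0 to 4 lower for Drosha_KO over Dgcr8_KO, and 0 for Ago1_2_KO over the mean of both. Medians ran from -0.99 to -0.10, -1.13 to -0.21 and -1.22 to -0.28, differences in share from -6.15 to -0.452, -6.92 to -1.22 and -7.06 to -1.37 percentage points, and log2 subunit ratios from -0.09 to -0.01, 0.0013 to 0.07 and -0.0099 to 0.063. The subunit ratio of Ago1_2_KO changed sign without WT 2 (-0.0099), and Rpl10l in Dgcr8_KO without WT 1 (-0.069, with 1.06 the highest, without WT 2). The causes were not tested. With 2 libraries a group, permutation cannot reach p under 0.333, and counting error is negligible for all members but Rpl3l.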

Other observations

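Rps4l, whose name fits the rule but which is annotated as a transcribed processed pseudogene, was at 297 and 296 CPM in Drosha_KO, against 110 and 140 CPM in the libraries labelled Dgcr8_KO. The log2 fold change was 1.25 ± 0.31 (edgeR adjusted p = 0.0275), with the libraries not overlapping. It was at 212 and 339 CPM in Ago1_2_KO, against 169 and 306 CPM in WT, so the WT libraries span most of the range of the knockouts. Rps4x, the X-linked gene it resembles, had a log2 fold change of -0.44 ± 0.34 in the same comparison (edgeR adjusted p = 0.404). Rpl6l, the other pseudogene with a fitting name, was at most 16.7 CPM in any library.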
